A study of Mus musculus with 6 samples.

Results

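The 44 genes described here encode the working parts of the lysosome: 14 luminal hydrolases, 3 luminal cofactors, 8 lysosomal membrane proteins, 14 subunits and 2 accessory proteins of the V-ATPase, and the 3 transcription factors of the MiT/TFE family, Tfeb, Tfe3 and Mitf. They were chosen by symbol, with earlier results of these data known, and all 44 were found among the 55487 genes of the count tables. All 44 also passed the filter on low expression, which left 11429 genes to test. The data are bulk RNA-seq of primary cortical microglia from newborn CAG::CreERT2; Nr1d1 fl/fl pups, with 3 Cre− and 3 Cre+ cultures and 1 library per culture. Both groups carried the floxed Nr1d1 allele, which encodes the clock repressor REV-ERBα, and both received 4-hydroxytamoxifen (4-OHT) at 1.5 μM for 2 days by the labels, although the methods of the study give a shorter exposure for this line. The question of the comparison was which transcripts differ once the floxed exons are removed.

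The CAG promoter drives CreERT2 in all cell types, so recombination could take place in any cell of these cultures. The Cre− cultures lack the recombinase, and loss of Nr1d1 and active Cre therefore cannot be told apart. The microglia were shaken off mixed glial cultures kept in serum and GM-CSF, and they were not a sorted population. In bulk RNA, fewer cells of a type and less RNA per cell cannot be told apart either. The labels number the cultures 1 to 3 in each group without saying that they came from separate animals, so p-values measure the spread between these cultures.

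Lysosomes are acidic vesicles in which enzymes break down material that the cell has taken up or set aside for turnover, and microglia depend on them to digest engulfed debris. The V-ATPase pumps protons into the lumen with a cytosolic V1 sector that splits ATP and a membrane-embedded V0 sector that carries the protons. Many lysosomal genes share a short promoter element, the CLEAR element built around the letters CACGTG, to which TFEB, TFE3 and MITF bind.

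Counts on genes ran from 87545868 to 110909129 per library, and the 44 genes held between 3.93% and 4.31% of them. Nr1d1, the targeted gene, stood at 2.35, 1.20 and 1.64 CPM (counts scaled to a library total of 1000000) in the Cre− libraries and at 1.00, 0.945 and 1.08 CPM in the Cre+ libraries. Its log2 fold change was -0.77 (SE 0.25, adjusted p = 0.094 in edgeR's quasi-likelihood test), and counts per gene also include exons outside the floxed ones. Ribosomal RNA genes took 1.22% to 1.27% of the counts in the Cre− libraries and 0.791% to 1.12% in the Cre+ libraries, and their part in the results below was not tested. The labelled cell type was checked against 8 microglial and macrophage markers. Csf1r, the receptor that keeps microglia alive, was high, at 426 to 487 CPM, whereas the homeostatic marker P2ry12 lay at 0.401 to 1.03 CPM. Tyrobp (2250 to 2589 CPM), Ptprc (265 to 314 CPM) and Itgam (101 to 121 CPM) were high as well. Cx3cr1 (7.45 to 13.8 CPM), Tmem119 (1.85 to 3.55 CPM) and Aif1 (2.37 to 3.25 CPM) were low. Summed astrocyte, neuron and fibroblast markers reached at most 14.9, 3.19 and 2.27 CPM, oligodendrocyte-lineage markers at most 73.2 CPM and endothelial markers at most 27.6 CPM. No listed marker was without counts in all libraries.

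None of the 44 lysosomal genes passed an adjusted p of 0.05 in edgeR's quasi-likelihood test with Benjamini-Hochberg adjustment over all genes tested, against 5.07% of all genes called in either direction. At an unadjusted p below 0.05 the test passed 14 of the 44 (8 higher and 6 lower in Cre+), which is 31.8% of them against 19.1% of all genes tested. Other tools applied to the same libraries called a few. limma with or without sample weights called Atp6v0d2, Atp6ap2 and Lamp2, where it called 5.00% of all genes with weights and 5.10% without. DESeq2 called these 3 with Lamp1 and Atp6v1d, where it called 7.75% of all genes. Scaling by library totals in place of TMM, in edgeR, called the same 3 as limma (5.21% of all genes). A filter of 5 CPM called Lamp1 (6.96% of all genes). Without a filter 8 of the 44 were called, all higher in Cre+ (3.49% of all genes), in a fit that put the median log2 fold change of the 11429 genes at 0.08.

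The differences were small in both directions. Of the 44 genes, 26 had a log2 fold change (Cre+ over Cre−) above 0 and 18 below 0, with a median of 0.02 beside 0.0023 for all genes tested. The median absolute log2 fold change was 0.07, beside 0.11 over all genes. Expressed as a percent change, the members ran from -21.1% for Sgsh to 12.1% for Psap. The 95% interval lay within 20% in either direction for 37 of the 44, and its most distant bounds over the 44 were -36.8% and 25.2%. The precision behind these limits was high, with a median SE of 0.04 on the log2 scale beside 0.10 for all genes tested. The coefficient of variation between cultures of a group had a median over the members of 3.24% in Cre− and 4.11% in Cre+. The 3 Cre+ values lay wholly above or wholly below the 3 Cre− values for 14 of the 44 (31.8%), against 24.0% of all genes tested. Of these, 10 were higher in Cre+, against 12.3% of all genes, and 4 were lower, against 11.7%. With 3 cultures in each group, 0.1 is the lowest p that an exact 2-sided permutation test of a single gene allows.

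**Figure D1:**
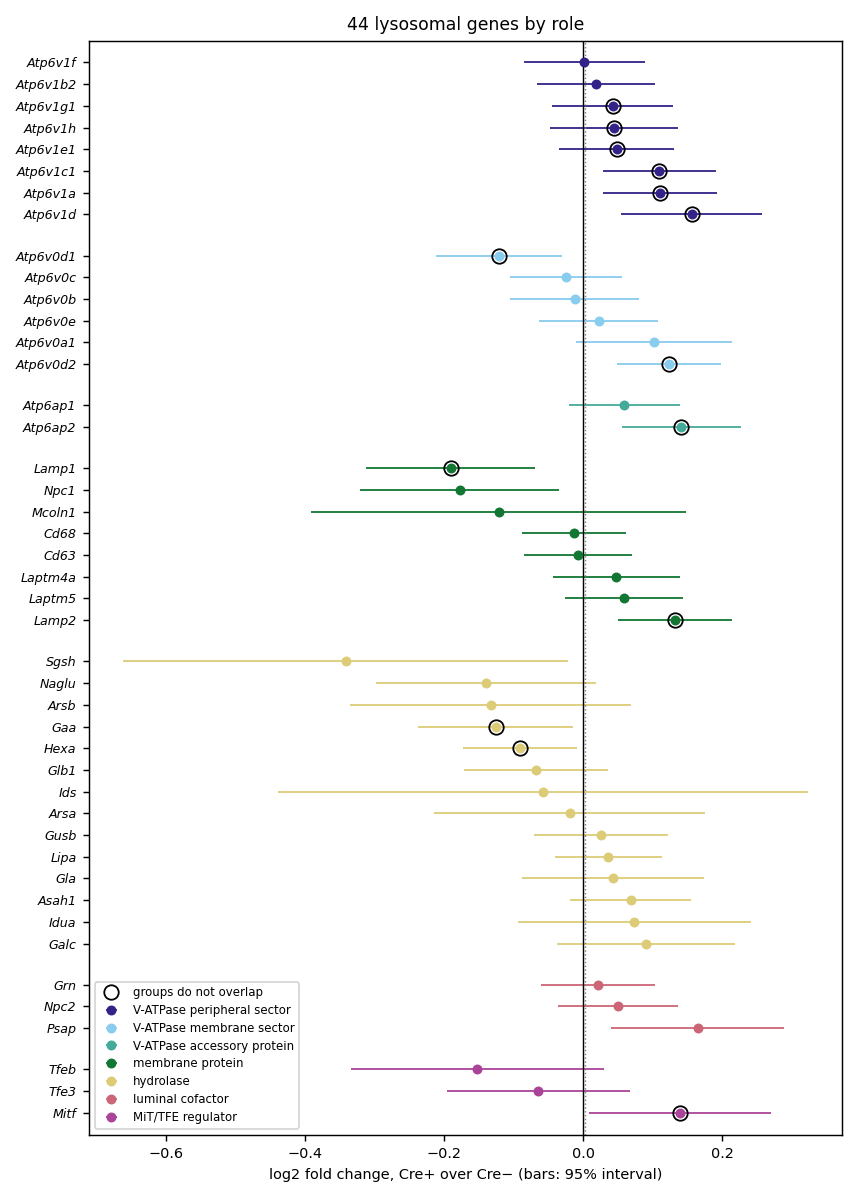
Log2 fold change (Cre+ over Cre−) of the 44 lysosomal genes, grouped by role on the vertical axis, with 95% intervals from edgeR as bars; the dotted line is the median of all genes tested and open circles mark the 14 genes whose groups do not overlap. All 8 subunits of the peripheral V-ATPase sector sit at or to the right of 0, whereas 8 of the 14 hydrolases sit to the left.

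The peripheral V1 sector of the V-ATPase lay to one side. All 8 of its subunits had a log2 fold change above 0, from 0.0018 for Atp6v1f to 0.16 for Atp6v1d, with a median of 0.05, whereas 50.6% of all genes tested lay above 0. In 6 of the 8 every Cre+ library was above every Cre− library, against 12.3% of all genes in that direction, and no subunit passed the adjusted threshold in edgeR. Without Cre− replicate 1, 6 of the 8 subunits were above 0 and the median was 0.03. The 8 genes share libraries and are not independent of each other.

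Atp6v1d, which encodes a subunit of the central rotor shaft, was at 202, 204 and 216 CPM in Cre− replicates 1 to 3 and at 223, 243 and 228 CPM in Cre+ replicates 1 to 3, after TMM normalization as for all CPM values here. The groups did not overlap, and the difference was 11.4% (95% interval 3.83% to 19.6%, adjusted p = 0.0763). Atp6v1a, the catalytic subunit that binds ATP, was at 823, 814 and 784 CPM in Cre− and 871, 856 and 887 CPM in Cre+. All 3 Cre+ values were higher, by 7.94% on average (95% interval 1.96% to 14.3%, adjusted p = 0.124). Atp6v1c1, a stalk subunit that joins V1 to V0, was at 540, 555 and 548 CPM in Cre− and 597, 585 and 591 CPM in Cre+. It differed by 7.89% (95% interval 1.96% to 14.2%, adjusted p = 0.123), again without overlap.

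The other 5 V1 subunits differed by less. Atp6v1e1 (3.40%) and Atp6v1g1 (3.01%), both of the peripheral stalks, and Atp6v1h (3.13%), a regulatory subunit, had higher values in every Cre+ library, with adjusted p from 0.553 to 0.637. For Atp6v1g1 the closest libraries were 495 CPM in Cre− and 496 CPM in Cre+. Atp6v1b2, the noncatalytic partner of Atp6v1a, and Atp6v1f, a rotor subunit, overlapped between the groups and differed by 1.29% and 0.122%. Processed pseudogenes with near-identical sequence held counts equal to 2.52% of those of Atp6v1g1 (Gm13453) and 1.76% of those of Atp6v1f. How many reads match gene and pseudogene alike was not measured.

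The 6 membrane-sector V0 subunits pointed both ways, with 3 above and 3 below 0 and a median log2 fold change of 0.0054. Their clearest difference was between 2 versions of the same subunit. Subunit d couples the rotor to the proton-carrying ring, and Atp6v0d1 encodes the version found in most tissues and Atp6v0d2 the one known from osteoclasts and macrophages. Atp6v0d2 (chromosome 4, 19876841 to 19922605, GRCm38) was at 1977, 1954 and 1946 CPM in Cre− and 2180, 2099 and 2124 CPM in Cre+. Every Cre+ library was higher, with a log2 fold change of 0.12 (SE 0.03, adjusted p = 0.0554), the smallest adjusted p of the 44. Atp6v0d1 (chromosome 8, 105524465 to 105566047) went the other way, at 221, 220 and 229 CPM in Cre− and 203, 208 and 206 CPM in Cre+. Its groups did not overlap either, with a log2 fold change of -0.12 (SE 0.04, adjusted p = 0.128).

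Taken as a ratio within each library, on the per-length FPKM scale, Atp6v0d2 exceeded Atp6v0d1 by 5.91, 5.86 and 5.60 times in Cre− and by 7.08, 6.68 and 6.81 times in Cre+. The ratio was 1.18 times higher in Cre+, and the groups did not overlap. A ratio within a library does not depend on how libraries are scaled. As a share of all subunit d transcripts, Atp6v0d2 made up 85.3% ± 0.37 (SD, n = 3) in Cre− and 87.3% ± 0.33 in Cre+. The pair was chosen after its opposite directions were seen, so the ratio restates them and is given without a test. The 2 transcripts differ in GC content (41.6% for Atp6v0d2 and 53.4% for Atp6v0d1), and with the trend removed, as described below, their log2 fold changes were 0.07 and -0.09.

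The remaining V0 subunits among the 44 each overlapped between the groups. Atp6v0a1, the large membrane subunit, lay at 511 to 577 CPM in Cre− and 561 to 629 CPM in Cre+, with a difference of 7.37% (95% interval -0.686% to 16.1%). It shared its position in the pump almost evenly with Tcirg1, the osteoclast and macrophage version and no member of the 44, since Atp6v0a1 gave 50.1% ± 0.72 of subunit a transcripts in Cre− and 51.8% ± 1.46 in Cre+ with overlapping groups (49.4% to 50.9% and 50.3% to 53.3%). Atp6v0b and Atp6v0c, which form the proton-carrying ring, and Atp6v0e differed by -0.818%, -1.68% and 1.58%. Subunit e also comes from Atp6v0e2, no member of the 44, which lay higher in every Cre+ library (log2 fold change 0.16, adjusted p = 0.164 in edgeR's quasi-likelihood test). As a share of subunit e transcripts, Atp6v0e gave 93.7% to 93.9% in Cre− and 92.8% to 93.5% in Cre+, without overlap. For Atp6v0c, the pseudogene Atp6v0c-ps2, which matched over 387 bases at 99.7% identity, held counts equal to 4.84% of the gene. Subunits B, C, E and G each came almost entirely from 1 gene, with Atp6v1b2, Atp6v1c1, Atp6v1e1 and Atp6v1g1 giving at least 99.8% of the transcripts of their subunit on average in both groups.

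Of the accessory proteins, Atp6ap2, the prorenin receptor that helps assemble the pump, was at 378, 383 and 388 CPM in Cre− and 433, 417 and 417 CPM in Cre+. The groups did not overlap, and the log2 fold change was 0.14 (SE 0.04, adjusted p = 0.0578). Atp6ap1, its partner in assembly, was at 1173 to 1223 CPM in Cre− and 1223 to 1266 CPM in Cre+, a difference of 4.20% (95% interval -1.37% to 10.1%). Over the 16 V-ATPase genes together, 13 were above and 3 below 0, with a median of 0.05, and 9 did not overlap (8 higher and 1 lower, where 12.3% and 11.7% of all genes did so in these directions). Their counts came to 1.04% to 1.06% of a library in Cre− and 1.10% in each Cre+ library.

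**Figure D2:**
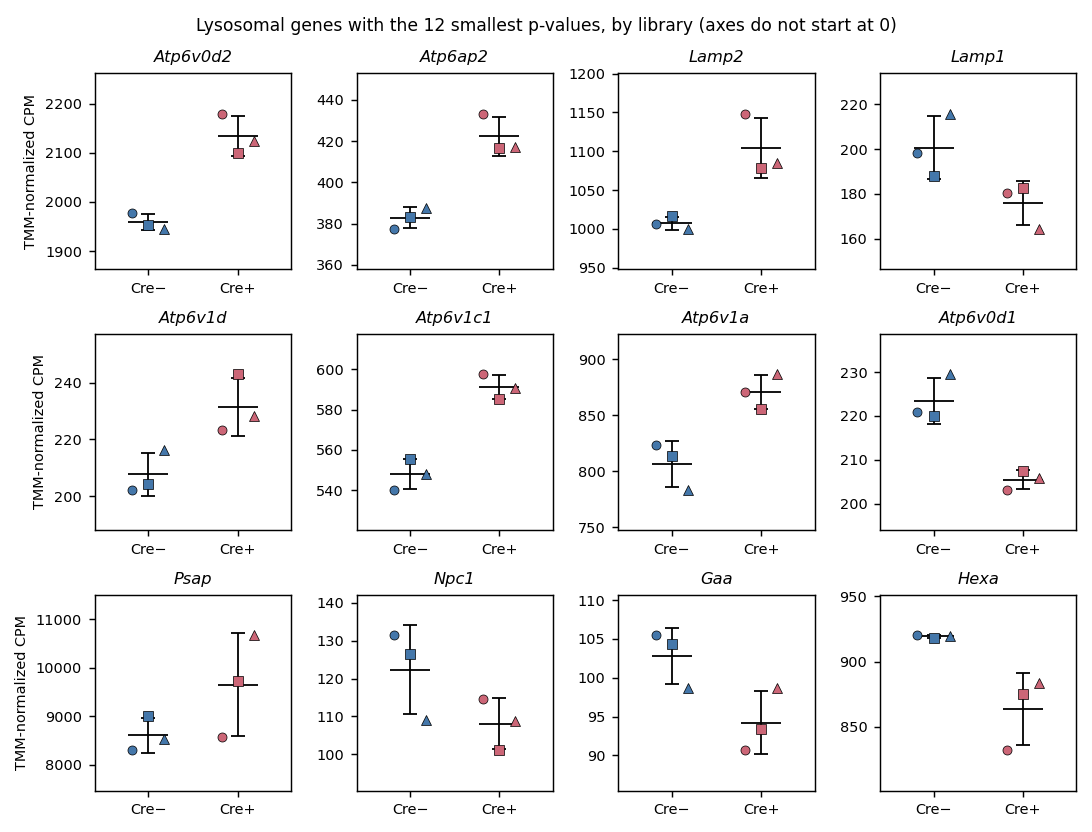
TMM-normalized CPM in each library (circle, square and triangle are replicates 1, 2 and 3) for the 12 lysosomal genes with the smallest p-values; horizontal lines are means and bars are SD, and no axis starts at 0. Cre+ and Cre− libraries separate for 10 of the 12, with Psap and Npc1 overlapping. Choosing the 12 by p from these same libraries favours separation, which 24.0% of all genes tested show. The separations are small beside the levels, such as 1946 to 1977 CPM against 2099 to 2180 CPM for Atp6v0d2.

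**Figure D3:**
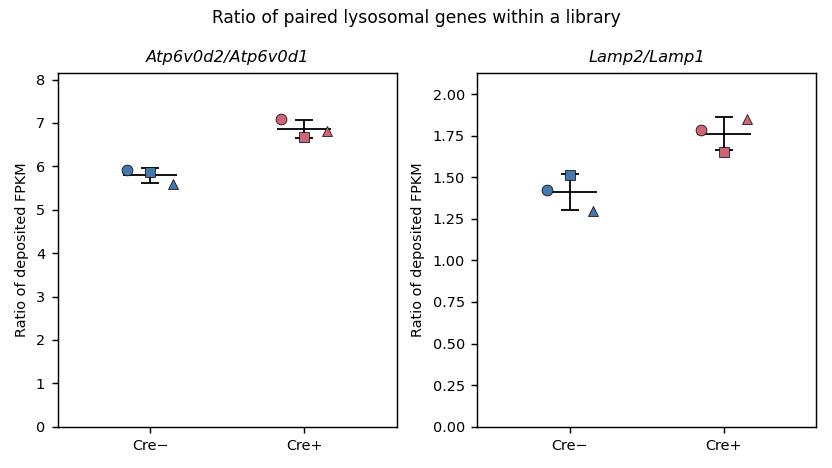
Ratio of the deposited FPKM of Atp6v0d2 to Atp6v0d1 (left) and of Lamp2 to Lamp1 (right) within each library, with means as lines and SD as bars; both axes start at 0. Both ratios lie higher in every Cre+ library, at 6.68 to 7.08 against 5.60 to 5.91 and at 1.65 to 1.85 against 1.30 to 1.51.

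Values of base composition moved with these differences. The 26 members above 0 had a median GC content of 46.7% in their longest transcript and the 18 below 0 one of 53.2%. Over all genes tested, the median log2 fold change was 0.06 in the fifth of genes with the lowest GC content and -0.09 in the fifth with the highest. When the trend with GC content and length was removed from each library, the log2 fold change was 0.07 for Atp6v0d2, 0.09 for Atp6ap2 and 0.06 for Lamp2, with adjusted p from 0.230 to 0.360 in edgeR's quasi-likelihood test. Atp6v1d stood at 0.10, and Atp6v1a and Atp6v1c1 at 0.07 each. Psap (GC content 54.7%) and Npc1 (45.7%) moved farther from 0 instead, from 0.17 to 0.21 and from -0.18 to -0.21. In that fit 7 of the 8 peripheral subunits and 12 of the 16 V-ATPase genes were still above 0, with medians of 0.04 and 0.05.

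Of 6 listed markers of osteoclasts, in which Atp6v0d2 is abundant, 2 were called, Ctsk and Acp5, both higher in Cre+. Of all genes tested, 5.07% were called in either direction. The 6 markers summed to 127 to 145 CPM in Cre− and 162 to 197 CPM in Cre+, and most of that sum was Ctsk and Acp5. Ctsk, the osteoclast collagenase, rose from 68.2 to 69.9 CPM to 84.8 to 89.6 CPM (log2 fold change 0.33, adjusted p = 0.0012, edgeR's quasi-likelihood test). Acp5, the tartrate-resistant acid phosphatase, rose as well, from 46.5, 58.7 and 49.6 CPM to 95.7, 61.7 and 62.2 CPM (log2 fold change 0.51, adjusted p = 0.038), with Cre+ replicate 1 well above the others. Without that library its log2 fold change was 0.26 (adjusted p = 0.116). It was 0.43 (adjusted p = 0.118) without Cre− replicate 1 and 0.47 (adjusted p = 0.128) without Cre− replicate 3. Dcstamp, a fusion receptor, was at 7.97 to 13.9 CPM in Cre− and 13.0 to 15.6 CPM in Cre+ (adjusted p = 0.187). Mmp9 was at 1.24 to 1.42 CPM in Cre− and 1.22 to 1.97 CPM in Cre+, with overlap. Calcr and Ocstamp lay below the expression filter. Calcr was lower in every Cre+ library, at 0.161, 0.368 and 0.168 CPM in Cre− and 0.109, 0.118 and 0.0198 CPM in Cre+. Ocstamp overlapped, at 0.345 to 1.13 CPM in Cre− and 0.392 to 1.69 CPM in Cre+. Macrophages also express Ctsk, Acp5 and Atp6v0d2, and the part of osteoclast-like cells in the V-ATPase values was not tested.

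The 8 membrane proteins gave 3 values above and 5 below 0, with a median log2 fold change of -0.01. Lamp1 and Lamp2, the heavily glycosylated proteins that coat the inner face of the lysosomal membrane, differed in opposite directions. Lamp2 (chromosome X, 38401357 to 38456454) was at 1006, 1016 and 1000 CPM in Cre− and 1148, 1078 and 1085 CPM in Cre+. The groups did not overlap, and the log2 fold change was 0.13 (SE 0.04, adjusted p = 0.0644). Lamp1 (chromosome 8, 13159161 to 13175338) was at 198, 188 and 216 CPM in Cre− and 180, 183 and 164 CPM in Cre+. All Cre+ values were below all Cre− values, with a log2 fold change of -0.19 (SE 0.06, adjusted p = 0.0696).

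The log2 fold change of Lamp1 was -0.18 after the trend with GC content and length was removed (adjusted p = 0.093 in edgeR's quasi-likelihood test). Without Cre− replicate 2 it passed the threshold, at -0.24 (adjusted p = 0.048, in a fit that called 3.49% of all genes), whereas without Cre− replicate 3 it was -0.14 (adjusted p = 0.234). Within each library the ratio of Lamp2 to Lamp1 was 1.42, 1.51 and 1.30 in Cre− and 1.78, 1.65 and 1.85 in Cre+, a factor of 1.25. This ratio was also chosen after the values were seen and is given without a test. Exons of Grtp1 on the other strand overlap 249 of the 2675 exonic bases of Lamp1, but Grtp1 held counts equal to only 1.48% of those of Lamp1.

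Npc1, the membrane transporter that passes cholesterol out of the lysosome, was at 131, 126 and 109 CPM in Cre− and 115, 101 and 109 CPM in Cre+. The groups overlapped, with a log2 fold change of -0.18 (SE 0.07, adjusted p = 0.154). Without Cre− replicate 3, the lowest of its group, Npc1 passed the threshold at -0.26 (adjusted p = 0.036 in edgeR's quasi-likelihood test, where 2.98% of all genes were called). It was -0.13 without Cre− replicate 1 (adjusted p = 0.372) and -0.13 without Cre+ replicate 2 (adjusted p = 0.387). Its exons share 511 bases with Rmc1 on the other strand, whose counts came to 56.1% of those of Npc1. Mcoln1, the calcium channel TRPML1, was thinly expressed at 17.8 to 26.2 CPM in Cre− and 18.2 to 23.4 CPM in Cre+, and its interval was wide, from -23.8% to 10.8%. The most abundant membrane proteins differed least. Cd68, the macrophage sialomucin used as a stain for phagocytic microglia, differed by -0.913% (95% interval -5.95% to 4.39%). Cd63, a tetraspanin of late endosomes, differed by -0.497% (95% interval -5.74% to 5.04%), although a pseudogene of it held counts equal to 4.49% of the gene. Laptm5 and Laptm4a, which span the membrane of late endosomes and lysosomes, differed by 4.14% and 3.37% with overlapping groups.

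The 14 hydrolases pointed both ways, with 6 above and 8 below 0 and a median log2 fold change of -0.04. Groups did not overlap for 2 of them, both lower in Cre+, which is 14.3% of the 14 against 24.0% of all genes tested. Hexa, the alpha subunit of the hexosaminidase that trims GM2 ganglioside, was almost identical in the Cre− libraries at 920, 918 and 920 CPM, and was at 832, 875 and 883 CPM in Cre+. The difference was -6.09% (95% interval -11.3% to -0.583%, adjusted p = 0.210). Gaa, the acid glucosidase that digests glycogen, was at 105.5, 104.3 and 98.7 CPM in Cre− and 90.6, 93.4 and 98.7 CPM in Cre+. The closest libraries of the groups were almost equal (98.68 and 98.66 CPM), and the log2 fold change was -0.13 (SE 0.05, adjusted p = 0.199). After the trend with GC content and length was removed, the log2 fold change of Gaa was -0.0056.

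Of the enzymes that digest glycosaminoglycans, the long sugar chains of the matrix, Gusb was the most abundant, at 132 FPKM in Cre−, and Sgsh and Ids were the 2 least abundant of all members. Sgsh, the heparan sulfatase, had the largest difference of the 44, and it is described for that reason although it was not among the 12 smallest p-values. It was at 7.54, 9.94 and 9.21 CPM in Cre− and 8.55, 5.84 and 6.65 CPM in Cre+. The first Cre+ library lay within the Cre− range, and the log2 fold change of -0.34 had an SE of 0.15 (adjusted p = 0.224). Leaving out each library in turn moved it between -0.51 and -0.23. Of its 4414 exonic bases, 955 overlap Card14 on the other strand, whose counts came to 12.1% of those of Sgsh. Naglu (-9.24%), Arsb (-8.82%) and Ids (-3.91%) also had values below 0, whereas Idua (5.24%) and Gusb (1.80%) lay above it, and all 5 overlapped between the groups with adjusted p from 0.328 to 0.912. Ids, the iduronate sulfatase, was the least abundant member with 310 to 509 counts per library, and its interval of -26.2% to 25.2% was the widest.

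The enzymes of lipid breakdown included the most abundant hydrolases. Lipa, the acid lipase that frees cholesterol and fatty acids from lipoproteins and lipid droplets, was at 3196, 3248 and 3136 CPM in Cre− and 3327, 3155 and 3341 CPM in Cre+. The groups overlapped, and the difference of 2.53% had a 95% interval of -2.79% to 8.15%. Galc and Asah1, which act on galactosylceramide and ceramide, differed by 6.44% and 4.86%, and Gla, the alpha-galactosidase, by 3.04%. Glb1, the beta-galactosidase of GM1 ganglioside, and Arsa, which removes sulfate from sulfatide, differed by -4.55% and -1.35%. None of these 6 genes had groups that did not overlap, and their adjusted p ran from 0.398 to 0.947.

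The 3 luminal cofactors were above 0. Psap, whose product is cut into the saposins that present sphingolipids to hydrolases, was at 8298, 9005 and 8527 CPM in Cre− and 8572, 9724 and 10667 CPM in Cre+. Cre+ replicate 1 lay inside the Cre− range and Cre+ replicate 3 far above it, and the log2 fold change was 0.17 (SE 0.06, adjusted p = 0.128). Its value hung on single libraries, at 0.24 (adjusted p = 0.0088, where 3.63% of all genes were called) without Cre+ replicate 1 and at 0.09 (adjusted p = 0.442) without Cre+ replicate 3. Psap was the only 1 of the 44 called once the trend with GC content and length was removed, at 0.21 (adjusted p = 0.043, edgeR's quasi-likelihood test), where 4.01% of all genes were called. Npc2, which hands cholesterol to Npc1, and Grn, the precursor of the granulins, differed by 3.54% and 1.49%, with overlapping groups.

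Levels per length spanned more than 3 orders of magnitude among the 44 genes, and the same 5 genes stood highest in both groups. In Cre−, the most abundant on the FPKM scale were Cd68 (3127), Psap (3082), Cd63 (1063), Laptm5 (755) and Atp6v0d2 (708). The lowest were Galc (4.40), Mcoln1 (2.82), Arsb (2.69), Sgsh (1.98) and Ids (0.745). The Cre+ means were 3119, 3479, 1065, 792 and 777 FPKM for the first set and 4.71, 2.61, 2.47, 1.57 and 0.719 FPKM for the second, where Tfeb (4.16 FPKM) took the place of Galc among the lowest 5. Psap lay above Cd68 in Cre+ and below it in Cre−, within the spread of Psap between cultures. By role, the median in Cre− was 248 FPKM for the membrane sector, 121 for the peripheral sector, 19.1 for the hydrolases and 6.63 for the MiT/TFE factors.

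**Figure D4:**
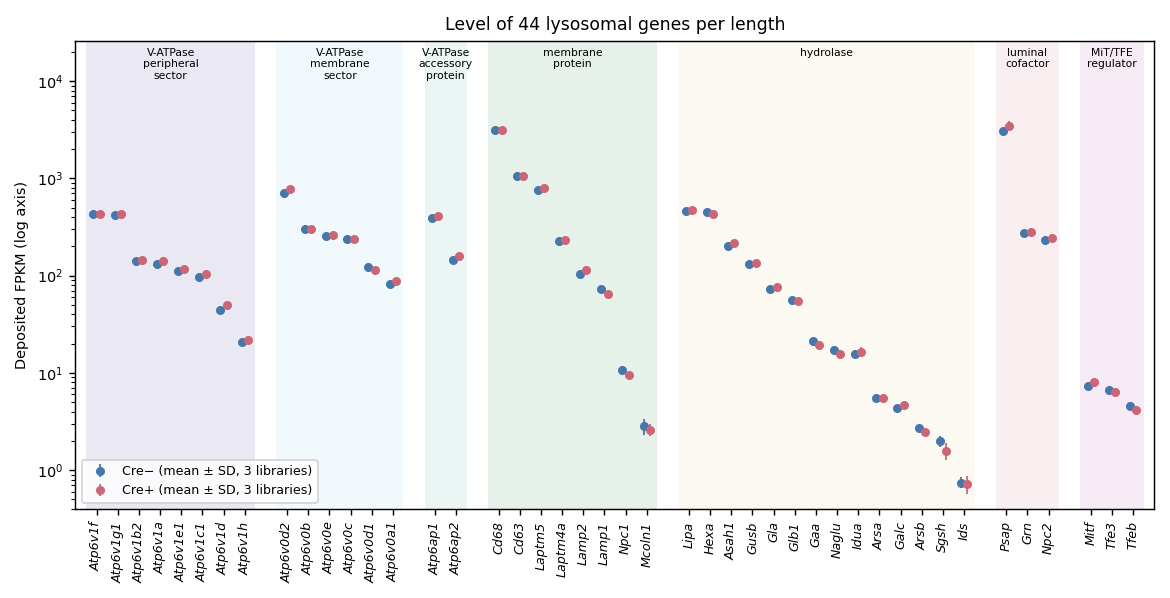
Mean deposited FPKM of each lysosomal gene on a log axis, by role, for Cre− and Cre+ with SD bars over 3 libraries. The range from Ids (0.745 FPKM in Cre−) to Cd68 (3127 FPKM in Cre−) dwarfs the distance between the groups at any gene.

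The 3 MiT/TFE factors pointed both ways. Mitf was at 46.0, 46.6 and 44.5 CPM in Cre− and 48.3, 49.1 and 53.8 CPM in Cre+, without overlap, and its log2 fold change was 0.14 (SE 0.06, adjusted p = 0.225), or 0.09 without Cre+ replicate 3. Tfeb was at 23.9, 26.1 and 29.4 CPM in Cre− and 23.5, 22.6 and 25.4 CPM in Cre+, with a log2 fold change of -0.15 (SE 0.08, adjusted p = 0.358) that was 0.02 after the trend with GC content and length was removed. It was -0.07 without Cre− replicate 3. Tfe3 was at 61.5, 67.3 and 58.8 CPM in Cre− and 61.8, 57.0 and 60.6 CPM in Cre+, and its log2 fold change of -0.06 (adjusted p = 0.634) was 0.01 without the filter on low expression. Without Cre− replicate 2 it was -0.0089, and without Cre− replicate 3 it was -0.11. Tfec, the fourth gene of the family and no member of the 44, was at 6.93 to 9.16 CPM over the 6 libraries (log2 fold change -0.03). RNA levels do not measure the entry of these factors into the nucleus, by which they are known to be controlled.

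The promoters of the members were searched for the core of the CLEAR element. RefSeq promoters (GRCm38.p6, 250 bases before to 50 after the start of the gene) were at hand for 37 of the 44; Atp6v0d2, Atp6v1b2, Atp6v1c1, Atp6v1g1, Atp6v1h, Asah1 and Npc1 had none. The letters CACGTG, which read the same on both strands, were present in 12 of the 37 (32.4%), against 12.5% of the 8370 promoters of tested genes and 8.09% of all 27025 promoters. The longer form TCACGTGA, which contains CACGTG, was in 5 (13.5%), against 2.40% and 1.12%. The 5 promoters with the longer form are printed below with those of Lamp1, which holds 4 copies of CACGTG, and Gaa. Capitals mark CACGTG, and each stretch is written 5′ to 3′ on the strand of the gene.
Lamp1, chr8:13159085-13159166 (+ strand): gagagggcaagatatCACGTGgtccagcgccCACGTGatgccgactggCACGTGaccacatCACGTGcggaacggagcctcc
Gaa, chr11:119267808-119267843 (+ strand): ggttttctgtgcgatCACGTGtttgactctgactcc
Gla, chrX:134601179-134601247 (− strand): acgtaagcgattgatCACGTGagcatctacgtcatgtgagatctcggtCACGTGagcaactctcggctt
Mcoln1, chr8:3500433-3500494 (+ strand): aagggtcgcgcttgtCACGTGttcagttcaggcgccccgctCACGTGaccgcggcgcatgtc
Atp6v0d1, chr8:105566055-105566082 (− strand): aggccctactgcggtCACGTGagacgcg
Atp6v0e, chr17:26676384-26676405 (+ strand): ctttagcgcgccgatCACGTGa
Atp6v1a, chr16:44139370-44139405 (− strand): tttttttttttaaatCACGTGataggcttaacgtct

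In Lamp1 the copies begin between 61 and 15 bases before the start, whereas those of Gla lie farther out, between 227 and 194 bases before it. Of the 12 members with CACGTG, 3 had a log2 fold change above 0 and 9 below 0. The 26 above and 18 below 0 of all 44 are not a like base, since only 37 were searched. Of the members without a promoter, Npc1 lay below 0 and Atp6v0d2, Atp6v1b2, Atp6v1c1, Atp6v1g1, Atp6v1h and Asah1 above it. The groups did not overlap for 4 of the 12, with Lamp1, Gaa and Atp6v0d1 lower and Atp6v1a higher in Cre+. Of all genes tested, 24.0% did not overlap, with 11.7% lower and 12.3% higher. Once the trend with GC content and length was removed, Arsa, Atp6v0b and Atp6v0e changed direction. Of the 5 with TCACGTGA, Atp6v1a lay higher and Atp6v0d1 lower in Cre+ without overlap, and Gla, Mcoln1 and Atp6v0e overlapped between the groups. The others with CACGTG were Glb1, Naglu, Sgsh, Arsa and Atp6v0b, and none of these 5 had groups that did not overlap.

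REV-ERBα itself binds AGGTCA, most often with a T and further A or T letters before it. AGGTCA on either strand was in 6 of the 37 promoters (16.2%), those of Gaa, Naglu, Idua, Arsa, Psap and Mitf, against 14.7% of the promoters of tested genes and 18.1% of all promoters. The longer TAGGTCA, which contains AGGTCA, was in 0 of the 37, against 2.15% and 2.97%. A match in these letters is not a binding site, and the windows hold neither enhancers nor distant sites.

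Other genes of the lysosome, 78 in 5 lists that hold none of the 44, placed the members in context. Of the 73 that passed the expression filter, 4 rose and 0 fell at an adjusted p of 0.05 in edgeR's quasi-likelihood test (5.48%, against 5.07% of all genes in either direction), and at an unadjusted p below 0.05 there were 11 higher and 8 lower. limma called 3 of these 4, with or without sample weights, and DESeq2 called 4 higher and 4 lower. Acp5 passed neither in limma with weights nor in DESeq2 (adjusted p = 0.054 and 0.228). Lamtor3, a scaffold protein that anchors mTORC1 signalling to the lysosome, rose from 142, 142 and 146 CPM to 180, 185 and 176 CPM (log2 fold change 0.33, SE 0.04, adjusted p = 4.0e-04). It was called in all 17 alternative settings, with values from 0.28 to 0.41. Other Lamtor genes were not called, with log2 fold changes of -0.05 for Lamtor1, -0.02 for Lamtor2, -0.09 for Lamtor4 and 0.06 for Lamtor5. In the list of 21 sorting and nutrient-sensing genes, 8 lay above and 13 below 0.

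The other 3 calls were for luminal proteins, and each was lost when libraries were left out. Acp5 has been described with the osteoclast markers, a list it also belongs to. Acp2, the lysosomal acid phosphatase, rose from 97.5, 101 and 93.6 CPM to 114, 110 and 109 CPM (log2 fold change 0.19, adjusted p = 0.038 in edgeR's quasi-likelihood test). Its call was lost whichever library was left out, with adjusted p from 0.055 to 0.146. Gm2a, the activator that lifts GM2 ganglioside for digestion by the product of Hexa, rose from 683, 730 and 719 CPM to 813, 752 and 824 CPM (log2 fold change 0.16, adjusted p = 0.047). It kept its call in 1 of 6 fits with a library left out, with values from 0.13 to 0.20.

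Just outside the threshold, Sort1, a receptor that sorts hydrolases, was at 78.4, 71.0 and 74.8 CPM in Cre− and 67.7, 64.0 and 63.0 CPM in Cre+ (log2 fold change -0.20, adjusted p = 0.053 in edgeR's quasi-likelihood test). Cd164, a sialomucin of endosomes and lysosomes, was at 213, 228 and 222 CPM in Cre− and 263, 234 and 250 CPM in Cre+ (0.17, adjusted p = 0.066). Of the 17 alternatives, 3 called Sort1, lower in Cre+, and 4 called Cd164, higher in Cre+. The list of 24 other hydrolases and cofactors held 3 calls, that of 21 sorting and nutrient-sensing genes held 1, and the 16 other membrane proteins and transporters, the 11 tested V-ATPase subunits and assembly factors and Tfec held 0, with 3, 6 and 0 genes at an unadjusted p below 0.05, where 19.1% of all genes stood. For the 11 V-ATPase genes this was 54.5%, with 4 higher and 2 lower. In these last 3 lists limma also called 0, whereas DESeq2, which called 7.75% of all genes, called 2, 1 and 0. Atp6v0a4, Atp6v1b1, Atp6v1c2, Atp6v1e2 and Atp6v1g3, V-ATPase subunits known from kidney and other tissues, did not pass the filter. Among cell type markers outside the osteoclast list, Itgam of microglia and macrophages rose (0.18, adjusted p = 0.046) and Flt1 of endothelial cells rose (0.33, adjusted p = 0.025), both in edgeR's quasi-likelihood test. The call of Itgam was lost whichever library was left out, and that of Flt1 in 5 of the 6 such fits, with adjusted p up to 0.147 and 0.115. Other markers of these lists had values below 0, with log2 fold changes of -0.11 for Tyrobp, without overlap, and -0.36 for Kdr, with overlap (adjusted p = 0.123 and 0.568). Summed microglial markers were at 3280 to 3396 CPM in Cre− and 3141 to 3204 CPM in Cre+. Most of that sum was Tyrobp, at 2390 to 2589 CPM in Cre− and 2250 to 2292 CPM in Cre+. Of the 7 microglial markers tested, 4 lay below 0 and 3 above it, namely Itgam, Cx3cr1 (0.44, with overlap) and Ptprc (0.14, without overlap). The part of cell composition in the results was not tested.

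**Figure D5:**
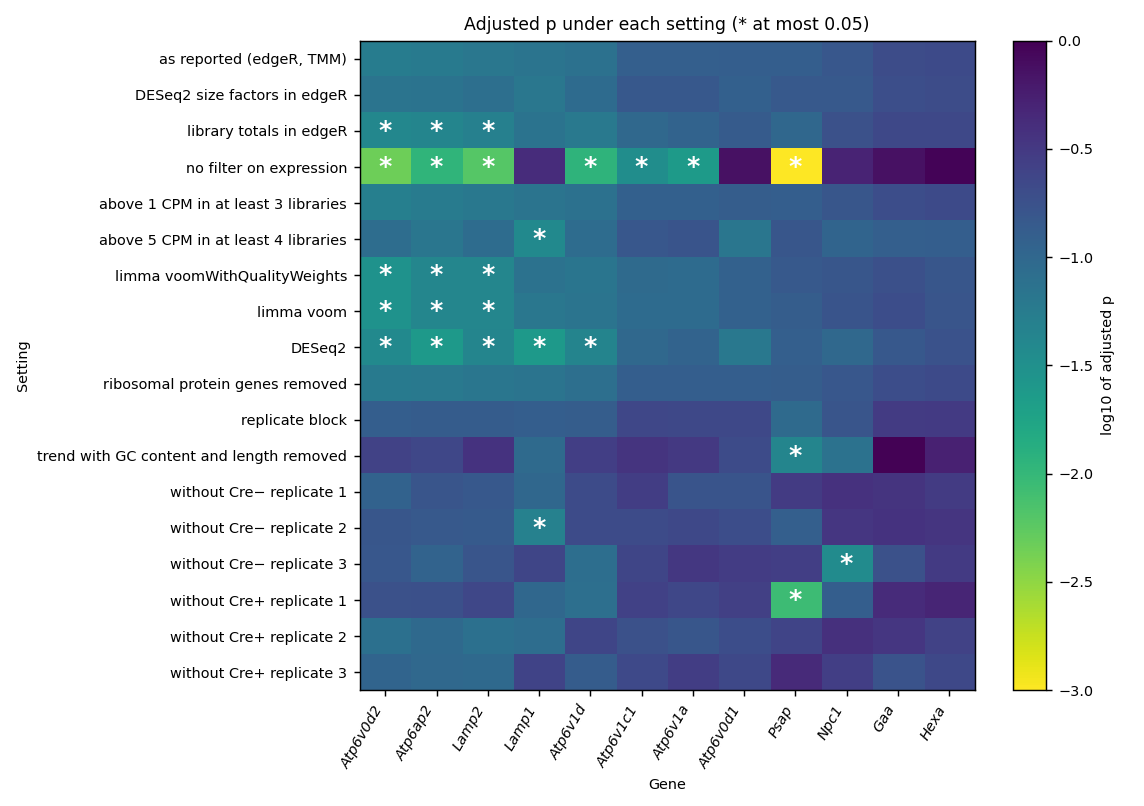
Adjusted p (colour, log10 scale) of the 12 lysosomal genes with the smallest p-values, in columns, under the reported analysis in the top line and 17 alternatives below it; stars mark an adjusted p of at most 0.05. Stars gather in Atp6v0d2, Atp6ap2 and Lamp2, with 5 alternatives each, and no star stands in the lines that leave out Cre− replicate 1, Cre+ replicate 2 or Cre+ replicate 3.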

How the data were processed

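RNA of 3 Cre− and 3 Cre+ cultures was sequenced by the authors after SMARTer cDNA amplification, a kit whose strand setting is not given in the sources used here. Per the labels, reads were aligned to GRCm38 with STAR 2.7.9a and counted per gene with featureCounts 2.0.3. The methods of the study give other versions of both. The deposited counts are whole reads per Ensembl gene without normalization. The CPM values deposited by the authors are counts scaled to a library total of 1000000, and the deposited FPKM values are CPM per kilobase of gene length. FPKM was used to compare levels between genes and within libraries, the deposited CPM only for a check of units, and counts for all else.

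Names and coordinates came from GENCODE M21 (GRCm38), which matched 55227 of 55487 genes; the unmatched held 0.00257% of counts. After removal of the 356 genes with an rRNA biotype, a gene was tested if it exceeded 1 CPM in 4 libraries or more, the filter of the study's methods. Testing used edgeR 4.0.16 (quasi-likelihood, R 4.3.3) with TMM normalization, no covariates and Benjamini-Hochberg adjustment, at a threshold of 0.05. SE is the log2 fold change over the root of the F statistic. Depth was 87545868 to 110909129 counts per library, and counting error is small beside a variation between cultures of 10.0%. Libraries of a group differed by more than counting noise, and each was used as 1 replicate. The pipeline was tested on simulated data, where edgeR called 78 of 100 genes changed by 0.5 on the log2 scale and 100 of 100 changed by 1. It called 10 of 11229 unchanged genes. Smaller changes were not simulated, and no member had an absolute log2 fold change above 0.34, so the simulation does not cover sizes seen here.

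The members and gene lists were chosen with earlier results of these data known. Values per library are given for the 12 members with the smallest p, for Tfeb, Tfe3, Mitf and Nr1d1, and for the 6 genes of the other lists with the smallest p; Sgsh, Lipa, the marker genes named and the ratios were added after values were seen. Alternatives were DESeq2 1.42.0 and its size factors, library totals, limma 3.58.1 voom with and without weights, 3 other filters, ribosomal protein genes removed, the replicate number as a block, each library left out and, added after the data were seen, a loess trend with GC content and length removed. Copies were searched with blastn 2.17.0. Plots used matplotlib 3.10.9.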

Additional observations from a re-analysis of the deposited data

How the results depend on the processing

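With all 6 libraries, the count of lysosomal genes called (0 in the reported test) was 3 with library totals in place of TMM, 3 with limma voomWithQualityWeights, 3 with limma voom, 5 with DESeq2, 1 with a filter of 5 CPM (Lamp1), 1 with the trend with GC content and length removed (Psap) and 8 with no filter on expression. It was 0 with DESeq2's size factors in edgeR, with a filter met by 3 libraries and with ribosomal protein genes removed. Over the fits that left out a library it was 0 to 1. The count over all genes (579) was 1528 with no filter, 886 with DESeq2 and 321 to 435 with a library left out, where fewer samples were fitted. The median log2 fold change of the lysosomal genes (0.02) was 0.10 with no filter, a fit that also put the median of the 11429 genes at 0.08, and 0.015 to 0.042 with a library left out. Tfe3 turned to 0.013 with no filter and Tfeb to 0.021 with the trend with GC content and length removed. The cause was not tested. None of the 12 lysosomal genes with the smallest p turned direction in any of the 17 alternatives.

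With the replicate number as a block, 430 genes and 0 lysosomal genes were called, and the calls of Acp2, Gm2a, Itgam and Flt1 were lost (adjusted p = 0.081, 0.092, 0.089 and 0.0504 in edgeR's quasi-likelihood test). The labels do not say whether same-numbered cultures were prepared together. Deviations of same-numbered libraries from their group means correlated at 0.0067, -0.033 and -0.056, and 3 libraries per group cannot settle whether they were paired. Depth left counting error small, since even the rarest member, Ids, had 310 counts or more in every library.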
